A study of Mus musculus with 2 samples.

Results

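The genes of the mitochondrial ribosomal proteins were followed in poly(A)-selected RNA from mouse megakaryocyte-erythroid progenitors (MEP), the common precursors of red cells and of platelet-forming megakaryocytes. Members are protein-coding genes whose symbol in the GENCODE M21 annotation starts with Mrpl or Mrps followed by a digit. The annotation holds 78 such symbols, of which 77 have a row in the gene tables, among 21474 protein-coding genes and 43346 annotated gene identifiers in all. The remaining one, Mrpl33, was not analysed here. The study consists of 1 group of 2 biological replicates sequenced as paired ends, with no treatment and no second genotype. Both are labelled primary cells of adult female C57BL/6J mice aged 5 weeks, under the same donor identifier, and a label describes them by absence of CD34 and by CD16/32. There is therefore no contrast between conditions, and the spread between the libraries may be biological or technical.

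Mitochondria carry their own ribosome, which translates the few messenger RNAs of the mitochondrial genome into core subunits of the respiratory chain and the ATP synthase. Its ribosomal RNAs are transcribed inside the organelle, whereas all of its proteins are encoded in the nucleus, made in the cytosol and imported. Some of these proteins descend from bacterial ribosomal proteins, and others are found only in mitochondrial ribosomes. In red cell precursors the organelle also houses the first and last steps of heme synthesis, and mature red cells have lost it.

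Replicate 1 held 79539457 estimated counts on annotated genes and replicate 2 held 65305321. All 10 fixed MEP markers were detected in both libraries. They held 0.130% of all TPM (a transcript abundance corrected for length and scaled to 1000000 in each library) in replicate 1 and 0.193% in replicate 2, and on scaled counts 9 of 10 were higher in replicate 2. All 6 granulocyte and monocyte markers were detected too, with 3.08% and 1.70% of all TPM, and all 6 were higher in replicate 1. The 4 B cell markers held 0.00633% and 0.00210% and were likewise higher in replicate 1, and none of the 4 T cell markers reached 1 TPM in both libraries. Cd34, which the label gives as absent, stood at 69.1 and 91.9 TPM, and Fcgr3, which encodes CD16, at 22.3 and 8.94 TPM. In RNA from many cells, fewer cells of a type and less RNA per cell cannot be told apart.

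Nearly the whole mitochondrial ribosome was represented. A level of 1 TPM or more in both libraries, called detected here, was reached by 75 of the 77 genes, against 46.9% of all protein-coding genes. The exceptions were Mrpl35 at 0.97 and 0.60 TPM in replicates 1 and 2, and Mrps14 at 0.98 TPM in each. At a mean of 5 TPM or more there were 71 members, 18 stood at 100 TPM or more, and 6 lay under 3 TPM. Together the members held 0.727% and 0.710% of all TPM in the libraries.

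The median member had a mean of 41.9 TPM, above 86.3% of all protein-coding genes and above 70.8% of the 10061 detected ones. Taken per library, the members' median was 39.9 ± 0.0707 TPM (SD, n = 2). The middle 50% of members lay between 13.7 and 93.8 TPM. From Mrpl35 to Mrpl52 the means spanned 1321-fold, from 0.785 to 1037 TPM, with an SD of 2.15 on the scale of log2(TPM + 0.01). For detected protein-coding genes the median was 16.4 TPM and the same SD 2.30. Most of these proteins enter the assembled ribosome in a single copy, and their transcripts were far from equal in abundance. Of the 76 pairs of neighbours in the order of mean TPM, 22 had libraries that did not overlap, so most adjacent ranks did not differ beyond the spread between libraries.

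**Figure D1:**
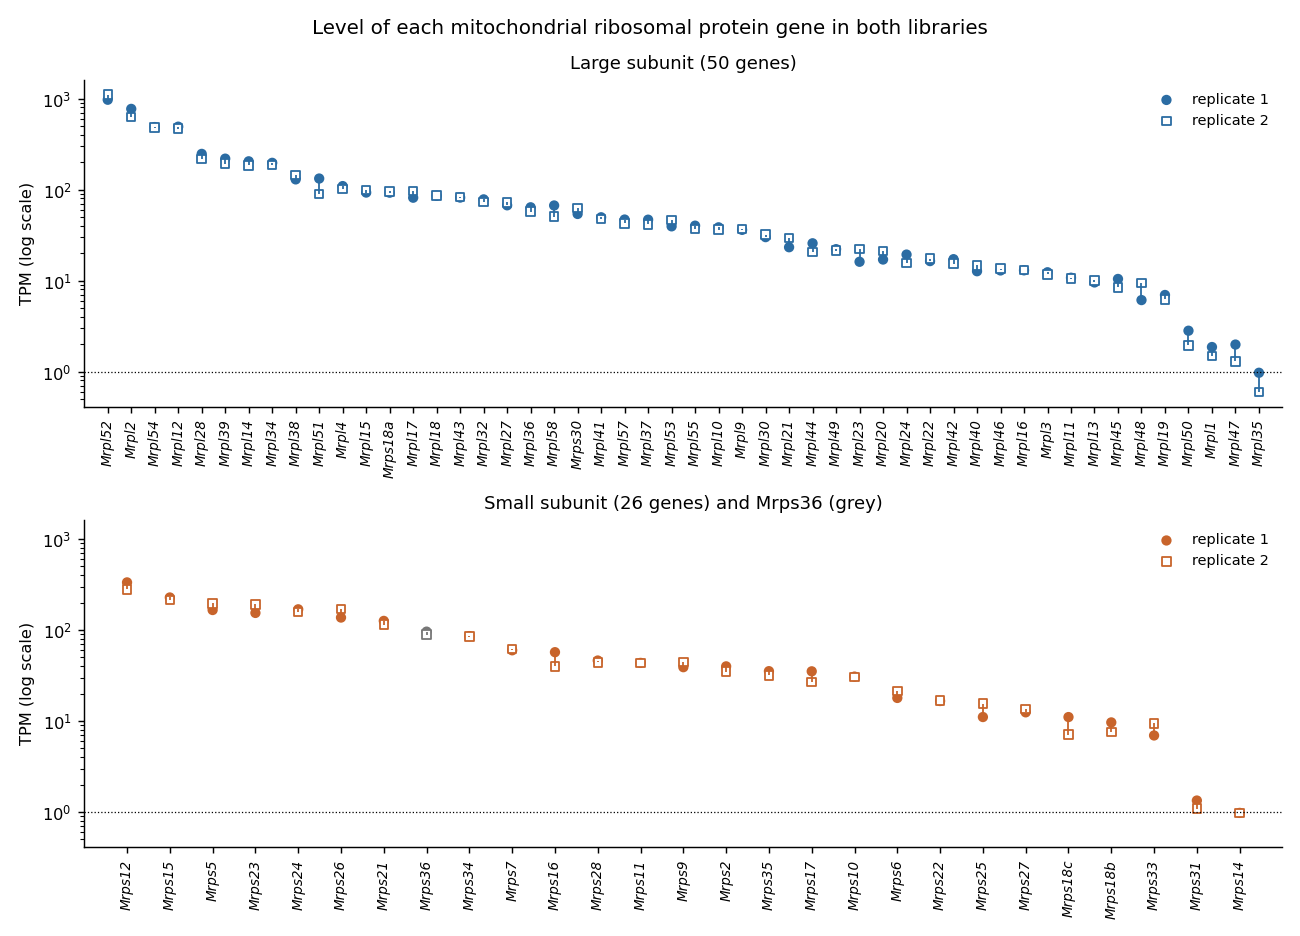
TPM (log scale) of each member in replicate 1 (filled circles) and replicate 2 (open squares), ordered by mean within the large subunit (top) and the small subunit with Mrps36 (bottom). Levels run from Mrpl52 at 970 and 1104 TPM to Mrpl35 at 0.97 and 0.60 TPM, and the dotted line marks 1 TPM.

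The highest members of the large subunit, which forms the peptide bonds, were Mrpl52, Mrpl2, Mrpl54, Mrpl12 and Mrpl28. Mrpl52 (ENSMUSG00000010406.7, chromosome 14, 54426909 to 54429756, GRCm38, plus strand), a protein with no bacterial counterpart, was at 970 TPM in replicate 1 and 1104 TPM in replicate 2. It was the first member in either library. Mrpl2 (ENSMUSG00000002767.9, chromosome 17, 46646229 to 46650139, plus strand), the counterpart of the bacterial protein beside the peptidyl transferase centre, was at 769 and 627 TPM. Most of that level was assigned to a transcript not annotated as coding, as described further on. Mrpl54, specific to mitochondria, was at 486 and 480 TPM. Mrpl12 (ENSMUSG00000039640.7, chromosome 11, 120484613 to 120489065, plus strand), the stalk protein that contacts translation factors, was at 491 and 468 TPM. Mrpl54 and Mrpl12 overlapped, and both lay below Mrpl2 in each library. Mrpl28, of bacterial type, followed at 246 and 215 TPM, below all of these.

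The small subunit, which reads the codon, was led by Mrps12, Mrps15, Mrps5, Mrps23 and Mrps24. Mrps12 (ENSMUSG00000045948.8, chromosome 7, 28739641 to 28741820, minus strand), a protein of the decoding centre, was at 334 and 280 TPM. Mrps15 was at 228 and 214 TPM, below Mrps12 in both libraries. For Mrps5 the values were 166 and 196 TPM, and for the mitochondria-specific Mrps23 they were 154 and 192 TPM. Mrps24 stood at 169 and 159 TPM, so the last 3 genes overlapped and have no order beyond the spread between libraries.

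The lowest members came from both subunits. In the large subunit these were Mrpl35 (0.97 and 0.60 TPM), Mrpl47 (1.98 and 1.29 TPM), Mrpl1 (1.86 and 1.48 TPM), Mrpl50 (2.81 and 1.94 TPM) and Mrpl19 (6.94 and 6.20 TPM). Mrpl1 belongs to the mobile stalk beside the exit site for transfer RNA, and Mrpl47 to the rim of the tunnel through which the new protein leaves. In the small subunit the lowest were Mrps14 (0.98 TPM in both), Mrps31 (1.34 and 1.09 TPM), Mrps33 (6.95 and 9.41 TPM), Mrps18b (9.67 and 7.55 TPM) and Mrps18c (11.1 and 7.11 TPM). Low did not mean uncounted: Mrpl35 had 230 and 114 estimated counts, and Mrps14 had 185 and 88. The floor of 3 counts corresponded to 0.0377 and 0.0459 CPM (counts scaled to 1000000 in each library).

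Division by transcript length bears on these ranks. On CPM, which is not corrected for length, Mrpl12 was the first member, Mrpl2 the second and Mrpl52 the third, and 7 of the 10 highest members by TPM were also among the 10 highest by CPM. The effective length of Mrpl52 was 272 and 268 bases, against 1171 and 1166 bases for Mrpl12. Mrpl35 had an effective length of 3575 and 3571 bases, and Mrpl19 moved from rank 71 by TPM to rank 39 by CPM.

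The subunits had similar medians. The 50 large-subunit genes had a median of 40.6 TPM and the 26 small-subunit genes a median of 39.7 TPM, a log2 difference of -0.04, small minus large. The sign of this difference turned when Mrps30 and Mrps18a, whose proteins sit in the large subunit in spite of their names, were counted by symbol (0.20), and when only transcripts annotated as protein-coding were summed (0.46). By ancestry as assigned here, the 44 genes of bacterial type had a median of 39.7 TPM. The 33 genes assigned as mitochondria-specific, which include Mrps36 and the S18 paralogs Mrps18a and Mrps18b, had one of 42.8 TPM. The log2 difference, bacterial minus specific, was -0.11, and -0.17 with Mrpl55 counted as bacterial-type. The sign of the ancestry difference turned as well on CPM (0.10) and on coding transcripts (0.53). Neither split therefore gave an order of the groups that held across the measures tried.

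Within the subunits, the 10 specific genes of the small subunit had the lowest median, 15.01 TPM, with a range from 1.22 TPM (Mrps31) to 173 TPM (Mrps23). The 16 small-subunit genes of bacterial type had a median of 44.4 TPM, the 28 of the large subunit 33.8 TPM, and the 22 specific genes of the large subunit 44.3 TPM. All 4 groups spanned more than 100-fold from their lowest to their highest member.

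Structural neighbourhoods did not share a level either. In the stalk, to which translation factors dock, Mrpl12 exceeded the other listed genes: Mrpl10 was at 38.4 and 36.3 TPM and Mrpl11 at 10.7 and 10.5 TPM. The 3 genes did not overlap, over a range of 45.1-fold. The 8 genes listed for the exit tunnel had a median of 18.3 TPM, from Mrpl47 at 1.64 ± 0.488 TPM (SD, n = 2) to Mrpl39 at 206 ± 18.1 TPM. Most of the level of Mrpl39 was assigned to a transcript not annotated as coding, as described further on. Mrpl45, which faces the inner membrane, was at 10.4 and 8.42 TPM, and Mrpl44 at 25.7 and 20.6 TPM. Genes of the central protuberance, which bridges the subunits, had a median of 64.2 TPM over 8 genes, between Mrpl48 at 7.78 ± 2.37 TPM and Mrpl52. Its member Mrpl58, a peptidyl-tRNA hydrolase that became part of the ribosome, was at 66.8 and 50.5 TPM. Over all transcripts, the 7 genes of the decoding and small-subunit set were closer together. They ran from Mrps10 at 30.7 ± 0.163 TPM to Mrps12, a range of 9.99-fold around a median of 60.9 TPM. On coding transcripts alone their range was wider. There Mrps5 stood at 3.37 and 6.18 TPM and Mrps11 at 5.39 and 4.38 TPM, against 334 and 280 TPM for Mrps12.

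Paralogs of the S18 family differed in level. Mrps18a, the large-subunit copy, was at 92.3 and 95.3 TPM, whereas Mrps18b stood at 9.67 and 7.55 TPM and Mrps18c at 11.1 and 7.11 TPM. The last 2 overlapped, and both lay below Mrps18a in each library. Mrps30 was at 53.9 and 62.5 TPM. Mrps36, which was named as a ribosomal protein and has since been placed in the oxoglutarate dehydrogenase complex, was at 96.1 and 89.1 TPM and belongs to neither subunit count.

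Partners of the ribosome that carry other names were as unequal. Aurkaip1, a small-subunit protein, was at 238 and 262 TPM. Gadd45gip1, a large-subunit protein also known as Crif1, was at 147 and 136 TPM, and Dap3, a GTP-binding protein of the small subunit, at 103 and 118 TPM. Chchd1 stood at 4.63 and 6.15 TPM and the pentatricopeptide protein gene Ptcd3 at 2.89 and 3.29 TPM. All 5 were detected in both libraries, and their range of 80.9-fold lay within that of the members.

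Genes that run and build the ribosome were lower than its proteins. The 13 translation factor genes had a median of 6.96 TPM, and 12 of them were detected. Tufm, the elongation factor that delivers aminoacyl-tRNA, was the highest at 70.3 and 67.8 TPM, with the membrane insertase gene Oxa1l at 64.0 and 59.1 TPM and the exchange factor gene Tsfm at 52.3 and 43.6 TPM. Mtrf1, a release factor, was the lowest at 0.36 and 0.44 TPM. Of 24 genes for assembly and ribosomal RNA modification 21 were detected, with a median of 7.70 TPM. Rbfa, which acts on the maturing small subunit, stood above the others at 153 and 167 TPM, and Gtpbp10, a GTPase of large-subunit assembly, was lowest at 0.51 and 0.53 TPM.

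The mitochondrial ribosomal RNAs were detected in these poly(A)-selected libraries. mt-Rnr1, of the small subunit, was at 60.8 TPM in replicate 1 and 132 TPM in replicate 2, and mt-Rnr2, of the large subunit, at 93.7 and 199 TPM. Both were higher in replicate 2, with a log2 CPM difference of -1.01 and -0.99, replicate 1 minus replicate 2. Most members differed in the other direction, as given further on. Whether selection for tails set these levels was not tested.

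Other large machines give the scale. The 95 protein-coding genes with symbols of Rpl, Rps or Rplp and a digit had a median of 417 TPM. They held 21.5% and 21.01% of all TPM. This list stands for the cytosolic ribosome, but its rule goes by symbol and need not take in ribosomal proteins only. The 84 nuclear genes of the respiratory chain had a median of 102 TPM and held 2.22% and 2.12%. Both lists include genes that were not detected, 5 in each, which lowers their medians. The members' median lay below both and above that of the combined translation and assembly list (37 genes, 7.47 TPM).

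In several genes most of the level was assigned to transcripts that are not annotated as protein-coding. Of the 75 detected members, 18 had 1 transcript in the tables and 57 had several. The transcript with the largest share of the gene's TPM was the same in both libraries for 72 members, or 96.0%, against 90.8% of detected protein-coding genes. It was annotated as protein-coding in both libraries for 56 members. For the other 19 (25.3%, against 21.9% of detected protein-coding genes) it was a retained intron transcript in 9, a processed transcript without a reading frame in 6 and a transcript marked for nonsense-mediated decay in 4, as read in replicate 1. A share this close to that of all detected genes is not particular to the members.

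Mrpl2 is the most abundant of these. Its leading transcript Mrpl2-205, a processed transcript of 434 bases in 2 exons, took 82.1% of the gene's TPM in replicate 1 and 77.8% in replicate 2. The coding transcripts of Mrpl2 were left with 137 and 139 TPM. Mrpl39 was more extreme, since Mrpl39-202, a retained intron transcript of 523 bases, took 98.7% and 98.1%. Of its 218 and 193 TPM, 2.74 and 3.66 TPM fell on the coding transcript. In Mrps15 the coding transcript held 45.8 of 228 TPM and 56.4 of 214 TPM. Mrps5 had 3.37 of 166 TPM and 6.18 of 196 TPM on coding transcripts, Mrps26 9.12 of 137 TPM and 13.8 of 171 TPM, and Mrpl51 7.22 of 132 TPM and 6.59 of 89.3 TPM. These genes would change place in the order of members if coding transcripts alone were counted.

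Mrpl32 had 1 quantified transcript, Mrpl32-201, which GENCODE M21 marks for nonsense-mediated decay, so its 78.0 and 72.7 TPM fell entirely outside coding transcripts. The remaining 12 genes of this kind were Mrpl14, Mrpl38, Mrpl15, Mrpl18, Mrpl58, Mrps11, Mrpl21, Mrpl23, Mrps25, Mrpl3, Mrpl13 and Mrpl47, with shares of the leading transcript between 43.6% (Mrpl47, replicate 2) and 95.5% (Mrps25, replicate 2). The 19 genes had a median of 85.6 TPM, against 37.4 TPM for the 56 led by coding transcripts.

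The lengths of these leaders were set beside that of the longest coding transcript of the same gene. Among the 18 that have a coding transcript in the tables, the leader was shorter in 17, with a median length of 612 bases against 1853. A comparison with the longest transcript favours this outcome. Coding leaders can be shorter as well: Mrpl17-205 had 380 bases, against 7300 for the longest coding transcript of Mrpl17. No such count is given here for coding leaders. A median of 83.8% of the leader's exonic bases also lay in exons of coding transcripts, with a range from 46.4% to 100%. The leader's start lay within 50 bases of that of the longest coding transcript in 4 genes, and its end in 3. Reads from shared exons do not by themselves tell these transcripts apart, and how far the division of reads between them set the TPM was not tested.

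With coding transcripts alone, the members' median was 22.1 and 23.6 TPM in the libraries and the spread was 2.57 on the log2 scale. Of the 10 highest members, 7 stayed among the 10 highest. Mrpl52, Mrpl54, Mrpl12, Mrps12 and Mrpl28 led, at 1037 ± 95.3, 479 ± 1.76, 475 ± 16.5, 307 ± 38.4 and 230 ± 21.5 TPM (SD, n = 2 each). Mrpl2 followed at rank 8 with 138 ± 1.82 TPM.

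**Figure D2:**
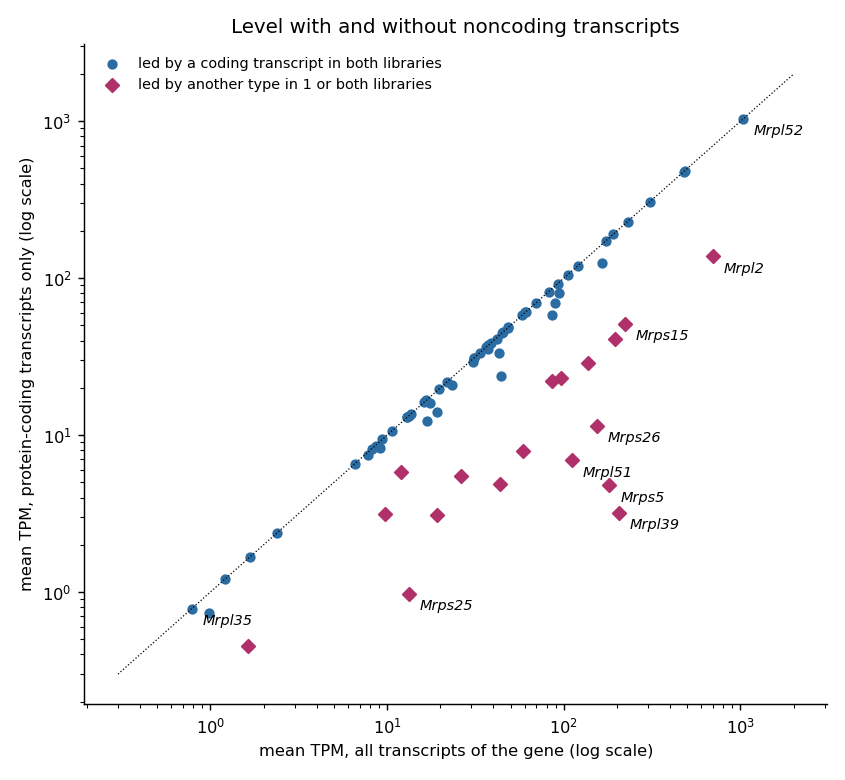
Mean TPM of each member over all its transcripts (horizontal, log scale) against the mean over transcripts annotated as protein-coding (vertical, log scale), without Mrpl32, whose coding value is 0; the dotted line marks equal values. Diamonds are genes led by another transcript type in 1 or both libraries and lie below the line, with Mrpl39 farthest below it among those at 100 TPM or more.

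In 3 members the leading transcript differed between libraries. Mrps33 was led by Mrps33-201 in replicate 1 with 56.6% and by Mrps33-202 in replicate 2 with 63.3%, where Mrps33-201 held 36.7%. For Mrps18b the leaders were Mrps18b-201 with 44.8% and Mrps18b-202 with 42.3%, both coding. Mrpl3 went from Mrpl3-204, marked for decay, with 50.1% to the coding Mrpl3-205 with 48.6%, where Mrpl3-204 kept 48.2%.

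Levels went with the base composition of the transcript. Members whose longest coding transcript had under 45% G and C had a median of 9.09 TPM (13 genes), and those from 45% to under 50% one of 17.5 TPM (23 genes). From 50% to under 55% the median was 37.4 TPM (23 genes), and at 55% or above it was 164 TPM (17 genes). For all detected protein-coding genes the medians of the same classes were 7.83, 11.3, 19.2 and 39.3 TPM, in the same order over a narrower range. Across the 76 members with such a transcript, log2 TPM and GC had Spearman rho = 0.55 and Pearson r = 0.61, given as a description since genes are not replicates. The points share both libraries and their preparation. Across 10042 detected genes rho was 0.33 and r was 0.31, and on coding transcripts alone the members' rho was 0.54.

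The extremes follow this order. Mrpl52 had 56.7% GC, Mrpl2 57.5%, Mrpl54 60.4%, Mrpl12 56.1% and Mrps12 56.5%. Mrps14 had 39.6%, Mrpl1 41.6%, Mrpl35 43.6%, Mrps31 44.2% and Mrpl47 45.3%. Some high members had lower GC: Mrpl39 (48.2%, mean 206 TPM), Mrps5 (46.9%, 181 TPM), Mrps26 (49.2%, 154 TPM) and Mrpl51 (44.9%, 111 TPM). In these genes, as in Mrpl2, most of the level lay outside the coding transcripts. Length had a negative relation to level, with rho = -0.30 between log2 TPM and log2 length of the longest coding transcript. This relation was weaker on CPM, at -0.11. Whether library preparation contributed to the relation with GC was not tested.

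**Figure D3:**
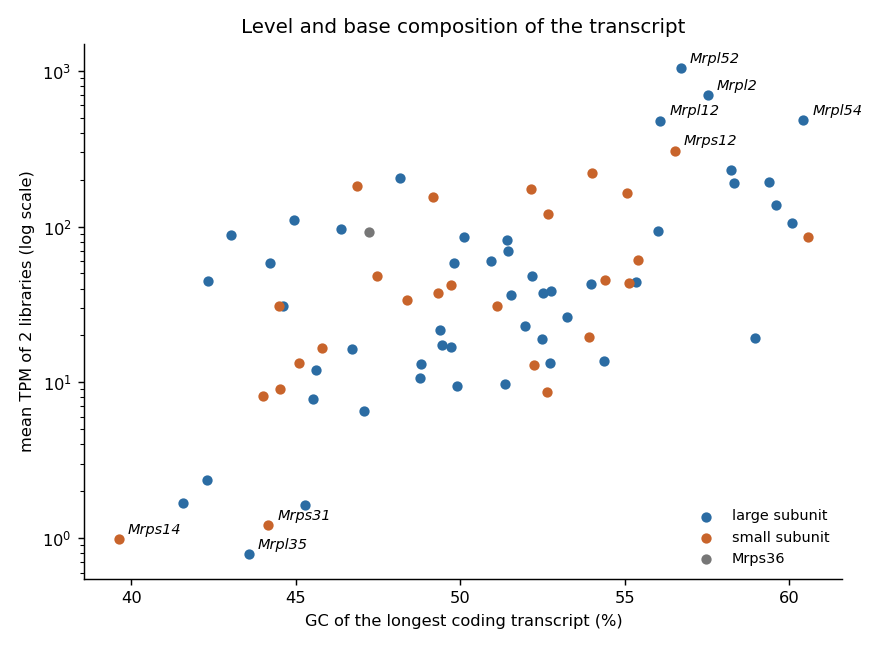
GC content of the longest coding transcript (horizontal, %) against mean TPM (vertical, log scale) for 76 members, coloured by subunit. The 17 members at 55% or above have a median of 164 TPM, and Mrps14, Mrps31 and Mrpl35 lie at the lower left.

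The libraries gave nearly the same order of members. Between them log2 TPM had rho = 0.99 across the 77 genes. In the 10 highest and 10 lowest members of each library, 8 and 7 genes were shared. Differences were measured as log2 CPM after TMM scaling, replicate 1 minus replicate 2, with a prior count of 2. Their median size was 0.20 over the 77 members, against 0.25 over the protein-coding genes that passed the count filter. At a mean of 5 TPM or more it was 0.18 for members and 0.19 for protein-coding genes.

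The direction of the members' differences was uneven. Replicate 1 was the higher library for 59 members and replicate 2 for 18 on this scale, with a median of 0.17. Over the 12402 protein-coding genes that passed the count filter the median was 0.01. Their directions were nearly balanced, with 6310 leaning toward replicate 1 and 6092 toward replicate 2. On log2 TPM the median was 0.06 for members and -0.09 for those genes, and replicate 1 was the higher library for 45 members and replicate 2 for 31. The members thus lay above the median gene by 0.16 on either scale, with one pair of libraries and no test. On the CPM scale the nuclear respiratory chain list had a median of 0.12, with 56 genes higher in replicate 1 and 24 in replicate 2. The list by cytosolic ribosomal protein symbols had a median of 0.06, with 53 genes higher in replicate 1 and 40 in replicate 2. Granulocyte and monocyte markers differed in the same direction by a median of 0.82 and MEP markers in the opposite direction by -0.43, and the part of either in the members' difference was not tested.

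No member passed 2-fold. Calls needed a mean of 5 TPM or more, separate authors' intervals and more than 2-fold between libraries on the CPM scale. These conditions were met by 0 of 71 members, against 1.37% of 7652 protein-coding genes. With separate intervals but more than 1.5-fold, 1 of 71 was higher in replicate 1 (5.07% of all genes) and 0 in replicate 2 (3.2% of all genes). That gene was Mrps16 (chromosome 14, 20389304 to 20393634), a small-subunit protein of bacterial type, at 57.2 and 39.8 TPM, 1.55-fold higher in replicate 1 on the CPM scale. Intervals were separate for 43 of all members, 28 of them higher in replicate 1, and cover quantification error within a library only. The share of all genes with separate intervals is not given here, so this count shows nothing particular to the members.

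Without conditions on level or interval, the members farthest toward replicate 1 were Mrps14 (0.83), Mrpl35 (0.78), Mrps18b (0.65), Mrps16 (0.63) and Mrpl50 (0.63). Of these, 3 lie under 3 TPM. Toward replicate 2 they were Mrpl23 (-0.33), Mrps26 (-0.27), Mrpl48 (-0.24), Mrpl20 (-0.18) and Mrps6 (-0.14). Counts and TPM need not move together where the transcripts in use differ in length. Mrps14 had the same TPM in both libraries, while its effective length was 2859 bases in replicate 1 and 1703 in replicate 2, and Mrps25 was higher in counts in replicate 1 (0.25) but stood at 11.1 and 15.6 TPM.

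**Figure D4:**
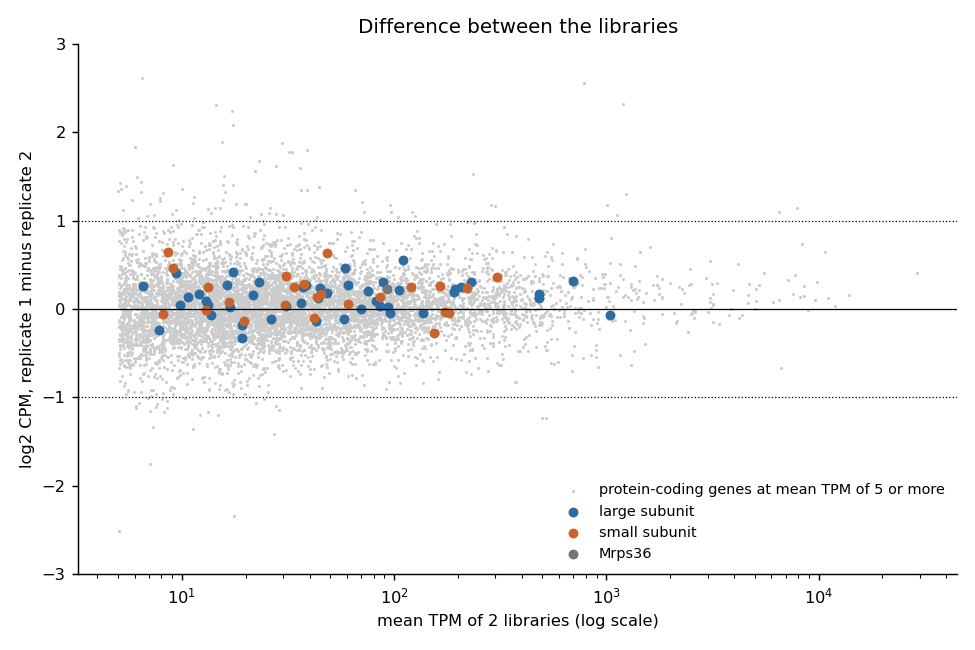
Mean TPM (horizontal, log scale) against the log2 CPM difference between libraries (vertical, replicate 1 minus replicate 2) for protein-coding genes at a mean of 5 TPM or more (grey) and the 71 members among them (coloured by subunit). No coloured point passes the dotted lines at 2-fold, and most lie above 0.

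Promoters of the members were then searched for short letter runs of factors known for nuclear genes of mitochondria and translation. Windows from 250 bases before to 50 after the start were taken from RefSeq (GRCm38.p6), and 68 of the 77 members had one. Shown here are those of Mrpl52 and Mrpl12, the first members by TPM and by CPM, of Mrps12, the first of the small subunit, of Mrps7, which carries a YY1 core, and of Mrpl35, the lowest member. Windows that hold none of the runs marked below are not printed. Capitals mark an ETS core (CCGGAAG), a YY1 core (AAGATGGC) or a wider NRF1 core (GCGCNTGC, any base at N), read on either strand, and sequences run 5′ to 3′ in the direction of the gene.
Mrpl52, chr14:54426659-54426958, plus strand: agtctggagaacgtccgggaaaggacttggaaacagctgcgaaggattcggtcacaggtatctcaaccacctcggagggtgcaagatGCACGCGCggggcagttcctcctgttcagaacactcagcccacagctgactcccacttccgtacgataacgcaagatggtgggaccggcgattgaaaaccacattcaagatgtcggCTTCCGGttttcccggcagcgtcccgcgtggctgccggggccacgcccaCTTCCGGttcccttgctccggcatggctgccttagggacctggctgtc
Mrpl12, chr11:120484387-120484686, plus strand: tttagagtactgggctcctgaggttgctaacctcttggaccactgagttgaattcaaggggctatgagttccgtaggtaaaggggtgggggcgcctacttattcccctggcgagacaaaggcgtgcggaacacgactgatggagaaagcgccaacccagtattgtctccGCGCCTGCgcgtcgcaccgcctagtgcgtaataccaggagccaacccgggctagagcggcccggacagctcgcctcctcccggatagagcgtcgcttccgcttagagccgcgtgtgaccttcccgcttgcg
Mrps12, chr7:28741772-28742071, minus strand: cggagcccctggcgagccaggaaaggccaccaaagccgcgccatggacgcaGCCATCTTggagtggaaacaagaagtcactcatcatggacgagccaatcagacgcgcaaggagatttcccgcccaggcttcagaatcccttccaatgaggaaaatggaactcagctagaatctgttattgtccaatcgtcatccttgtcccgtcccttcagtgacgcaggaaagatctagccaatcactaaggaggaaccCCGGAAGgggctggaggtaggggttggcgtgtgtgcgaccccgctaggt
Mrps7, chr11:115603890-115604189, plus strand: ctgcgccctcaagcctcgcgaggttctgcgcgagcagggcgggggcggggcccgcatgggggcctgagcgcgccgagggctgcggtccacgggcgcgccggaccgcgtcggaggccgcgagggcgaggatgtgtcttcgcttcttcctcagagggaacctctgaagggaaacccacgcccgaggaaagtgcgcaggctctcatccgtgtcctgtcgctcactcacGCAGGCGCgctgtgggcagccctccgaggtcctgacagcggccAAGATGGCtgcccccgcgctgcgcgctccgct
Mrpl35, chr6:71823735-71824034, minus strand: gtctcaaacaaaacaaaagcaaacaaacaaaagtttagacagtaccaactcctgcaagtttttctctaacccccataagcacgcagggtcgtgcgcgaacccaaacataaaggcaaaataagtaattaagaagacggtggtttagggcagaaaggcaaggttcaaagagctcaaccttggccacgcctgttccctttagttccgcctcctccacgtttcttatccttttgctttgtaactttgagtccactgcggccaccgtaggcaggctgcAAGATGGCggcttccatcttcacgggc

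In these windows Mrpl52 held ETS cores on either side of the start, at -47 and 3, and an NRF1-type run at -163, counting the first base of the transcript as 1. Mrpl12 had a single NRF1-type run at -81. Mrps12 had an ETS core at 2 and a YY1 core at -199, Mrps7 an NRF1-type run at -25 and a YY1 core at 19, and Mrpl35 a YY1 core at 24. The lowest and the highest member thus both carried at least 1 of the 3 runs. No run was found in 24 of the 68 members with a window, among them Mrpl2, second by TPM, and the low Mrps14 and Mrps31. A match is a run of letters and does not show that a factor binds there.

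Over all members the ETS and YY1 cores were more frequent than in other genes. The NRF1 cores lay nearer, in percentage points, to the share of detected genes, and the exact one rests on 7 members. A member was counted once if any of its windows held the run, since the 68 members had 74 windows in all. An ETS core was found in 25 of 68 members (36.8%), against 12.9% of 17491 protein-coding genes with a window and 22.3% of the 8013 of them that were detected. The YY1 core was found in 12 (17.6%), against 3.57% and 5.82%. It contains the letters ATG, and in some members, such as Mrps7 (at 19) and Mrpl35 (at 24), it lay after the start of the transcript. How many of these runs coincide with a start codon was not tested. The exact NRF1 core (GCGCATGC) was found in 7 (10.3%), against 3.93% and 6.48%, and the wider one in 21 (30.9%), against 14.2% and 22.6%. At least 1 of the 3 runs, with NRF1 in the wider form, was present in 44 members (64.7%), against 26.4% and 42.8%, and at least 2 in 14 (20.6%), against 4.04% and 7.53%. In Mrpl48, 1 of these 14, the runs lay in different windows.

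Common promoter elements were no more frequent among members than among detected genes. The GC box (GGGCGG) was found in 34 members (50%), against 71.6% of detected genes and 49.2% of all protein-coding genes. A CCAAT box (CCAAT) was found in 26 (38.2%), against 42.8% of detected genes, an E-box (CACGTG) in 5 (7.35%), against 12.4%, and a TATA box (TATAAA) in 5 (7.35%), against 7.49%. Members with an ETS core had a median of 58.7 TPM and those without one of 31.0 TPM, and for the YY1 core the medians were 52.2 and 36.9 TPM. With and without the exact NRF1 core they were 37.4 and 38.5 TPM, and with and without the wider one 44.6 and 31.0 TPM.

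Many members start back to back with another gene. A coding neighbour on the other strand, starting upstream and pointing away, lay within 1000 bases of the start in 18 of the 77 members (23.4%), against 6.83% of all protein-coding genes and 11.1% of the detected ones. In 17 of the 18 it lay within 300 bases, and in 11 within 100 bases. Mrpl54 and Apba3 start closest, 26 bases apart.

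**Figure D5:**
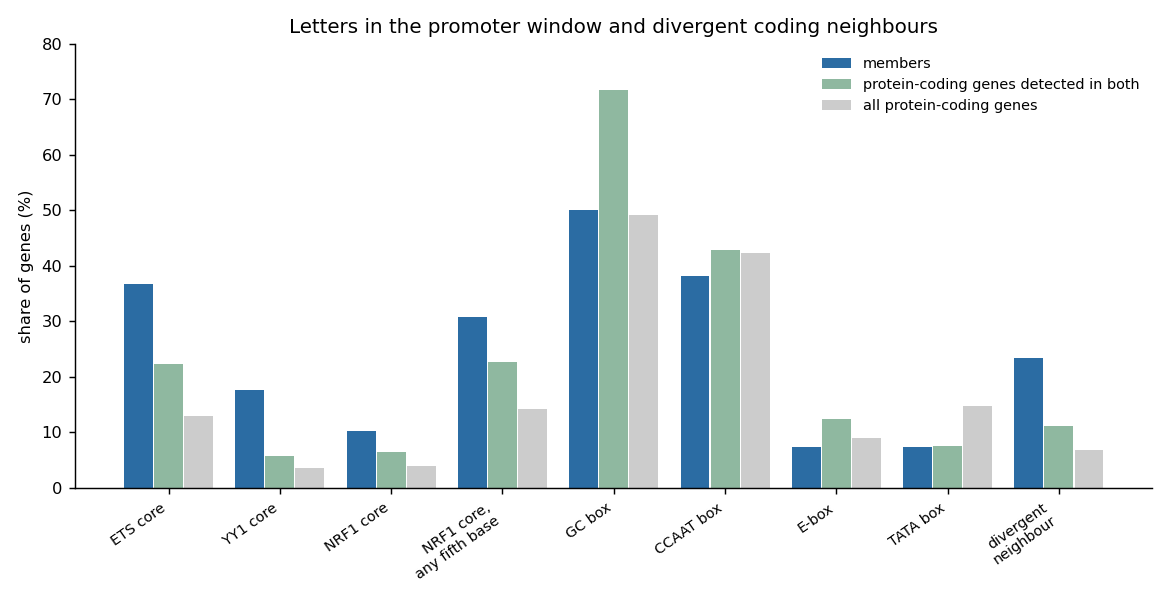
Share of genes (%) with each letter run in the promoter window, or with a divergent coding neighbour within 1000 bases (last group), for members, detected protein-coding genes and all protein-coding genes. Member bars are highest for the ETS, YY1 and NRF1 runs and for divergent neighbours (36.8%, 17.6%, 10.3%, 30.9% and 23.4%), and not for the GC, CCAAT, E and TATA boxes. For the exact and the wider NRF1 run detected genes stand at 6.48% and 22.6%.

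The 2 genes of such a pair often stood at different levels. Of the 18 neighbours 16 were detected, 6 were higher than the member in both libraries and 12 were lower in both. The neighbour farthest above its member was that of Mrpl49 (22.1 and 21.3 TPM), namely Fau, which encodes a protein of the cytosolic ribosome, at 4800 and 5201 TPM, with starts 59 bases apart. Mrps12 and Sars2, the mitochondrial seryl-tRNA synthetase gene, start 172 bases apart, and Sars2 was at 43.6 and 54.5 TPM, below Mrps12. The condensin subunit gene Ncapd2, at 253 and 287 TPM, exceeded Mrpl51. Mrps5 and Mrpl10 lay beside Zfp661 (0.25 and 0.17 TPM) and Lrrc46 (0.15 and 0.11 TPM), which were not detected, while Mrpl32 lay beside the proteasome gene Psma2 at 15.6 and 16.7 TPM.

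The members are spread over 17 chromosomes, the largest numbers being on chromosome 11 (11 genes) and chromosome 17 (8 genes). Overlaps limit some of the counts. An annotated gene overlapped 35 members on the other strand and 12 on the same strand, and since strand handling of the counting is not given, reads of such pairs may not have been separated. Estimated counts, deposited to 2 decimals, were exactly whole in both libraries for 65 members and not whole in 1 or both for 12, Mrps5, Mrps24 and Mrpl23 among them. The processed pseudogene Mrpl23-ps1 was listed at 5.59 and 3.94 TPM beside Mrpl23 at 16.1 and 22.3 TPM, so both levels are uncertain.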

How the data were processed

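Poly(A) RNA-seq was analysed for 1 group with 2 biological replicates. Per the labels reads were placed on mm10, and GENCODE M4 is named in the note filed with each library. Which aligner, quantification program and strand setting were used was not given in the sources used here. Expected counts, which divide shared reads and need not be whole, were deposited by the authors for genes and transcripts. Deposited TPM is corrected for effective length and sums to 1000000 in a library, and deposited FPKM served as an alternative. The share of a gene held by each of its transcripts is a percent column deposited by the authors. The level of the authors' TPM intervals is not stated.

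Gene identifiers without version were matched to GENCODE M21 (42462 of 43346; 884 did not match). Transcript types, lengths and coordinates (GRCm38) come from M21, so a transcript's type may differ from that in the annotation used for counting. Subunit and ancestry were assigned from general knowledge. Expected counts were rounded to whole numbers and scaled with edgeR 4.0.16 (R 4.3.3; TMM factors 0.980 and 1.02; filterByExpr, passed by 13546 genes), and DESeq2 1.42.0 gave alternative size factors of 1.08 and 0.926. With 1 group no test between conditions was possible, and no p-value was computed. The calculation of log2 differences was checked on simulated counts with planted differences, which checks the calculation and not these libraries. Other steps used Python 3.11.15, numpy 2.4.6, pandas 2.3.3 and matplotlib 3.10.9.

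Members and lists were chosen with earlier results of these data known. Values per library are given for the 5 highest and 5 lowest members of each subunit, the 5 farthest apart in each direction, the structural sets, the S18 paralogs, Mrps30, Mrps36, members whose leading transcript differs or is not coding, partner lists and divergent neighbours. Alternatives changed the unit, pseudocount, threshold, filter, scaling or assignment, or left out 1 library; the sum over coding transcripts was added after seeing the data.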

Additional observations from a re-analysis of the deposited data

How the results depend on the processing

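No paired analysis was possible because there is only 1 group. With 2 libraries, differences between them have no estimate of error, and intervals and floors cover quantification or counting error only. Leaving out replicate 1, then replicate 2, gave medians of 39.8 and 39.9 TPM and percentiles of 85.7 and 86.1. In the same order the log2 spreads were 2.18 and 2.13, with 75 detected members each time. The subunit differences were -0.0674 and -0.0084, and the ancestry differences were -0.11 and -0.0204. The members' median, 41.9 TPM, was 41.4 as posterior mean TPM, 34.3 in FPKM, 26.02 in CPM and 23.1 on coding transcripts. The percentile, 86.3, became 70.8 among detected genes, 76.2 on CPM and 84.0 on coding transcripts. The log2 spread, 2.15, was 1.99 with a pseudocount of 1, 1.80 on CPM and 2.57 on coding transcripts. The small-minus-large difference, -0.04, became -0.12 on CPM and turned to 0.20 by symbol and 0.46 on coding transcripts; the bacterial-minus-specific difference, -0.11, turned to 0.10 on CPM and 0.53 on coding transcripts. Members past 2-fold were 0 with DESeq2 size factors, library totals and log2 TPM too and 1 at 1.5-fold, and members with an NRF1 core went from 7 to 21 in the wider form. Detection was 77 members at 0.5 TPM and 71 at 5 TPM. The median difference between libraries stayed above 0 under each scaling (0.06 on log2 TPM to 0.18 with DESeq2 size factors), while the median over protein-coding genes moved from 0.01 to -0.05 on library totals and -0.09 on log2 TPM. Results on coding transcripts were added after seeing the data. Why values changed between settings was not tested.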
